A study of Mus musculus with 4 samples.

Results

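The collagen gene family of mouse liver was taken from a comparison of Ern1-LKO livers with wild-type (WT) livers, by every locus whose symbol reads Col, a number, the letter a and a number. The rule found 44 collagen loci among 25572 loci, and they were grouped as 11 fibrillar, 6 basement membrane (type IV), 6 type VI, 9 FACIT (fibril-associated collagens with interrupted triple helices) and 12 other collagens. All 44 mouse collagen symbols of GENCODE M21 were among them. Ern1-LKO names a liver-specific knockout of Ern1, which encodes IRE1α, an endoplasmic reticulum (ER) stress sensor, and the labels name neither the recombinase nor its promoter. Livers came from C57BL/6J mice aged 8 weeks, with 2 Ern1-LKO libraries and 2 libraries from WT mice that the labels name as controls of the knockout. The authors deposited 1 FPKM value per genotype (fragments scaled by transcript length and sequencing depth), so levels can be compared between genes, but no spread between mice can be shown and the depth of each library is unknown.

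Collagens are secreted proteins of 3 chains wound into a triple helix, which is folded and hydroxylated in the ER and then trimmed, assembled and crosslinked outside the cell. Fibrillar collagens form the fibrils of the liver's portal tracts and scars, type IV networks underlie epithelia and vessels, and type VI forms beaded filaments between the fibrils. In liver they are made mainly by hepatic stellate cells, portal fibroblasts, vessel walls and endothelium, whereas hepatocytes are a main source of type XVIII.

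The libraries carried the markers of liver. At the authors' q under 0.05, hepatocyte markers had 0 calls by Cuffdiff among 13 tested, and 0 at an unadjusted p under 0.05. Of all tested loci, 1.58% were called higher and 1.16% lower, and 5.74% were higher at that p. The markers summed to 41931 FPKM in Ern1-LKO livers and 42003 FPKM in WT livers. The combined locus of Apoa1 and Sik3 was at 10627 FPKM in Ern1-LKO livers and 11069 FPKM in WT livers, that of Ahsg and Dnajb11 at 7232 and 6599 FPKM, and Ttr at 6212 and 7027 FPKM in the same order. Alb is listed at 0 in both because its fragments were too many for the estimate. Ern1 itself was at 30.2 FPKM in Ern1-LKO livers and 21.4 FPKM in WT livers, with a log2 fold change of 0.50 (implied SE 0.19, the error derived from the deposited test statistic) and a Cuffdiff q of 0.172 in the authors' deposited table. A gene-level FPKM does not show whether an exon was deleted, so it does not check the genotype labels.

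The collagens that differed were the chains of types I and III, 3 type VI chains, 2 of the less abundant type IV chains and 1 type V chain, and each was higher in Ern1-LKO livers. Whole-liver RNA holds every cell type, so more cells of a type and more RNA per cell cannot be told apart. Of the 20 collagens that the authors tested, 9 were called higher at their q under 0.05, the threshold used throughout, against 1.58% of all 13320 tested loci. They were Col1a1, Col1a2, Col3a1, Col5a2, Col4a3, Col4a5, Col6a1, Col6a2 and Col6a3. No collagen was called lower, against 1.16% of all tested loci, and 12 collagens lay at an unadjusted Cuffdiff p under 0.05, all of them higher. Of all tested loci, 5.74% were higher at that p, and 1368 lay under it in either direction. The 9 called collagens ranged over 0.350 to 9.18 FPKM in Ern1-LKO livers and over 0.0763 to 4.62 FPKM in WT livers, and their ratios over 1.76 to 4.59. The 11 tested but not called ranged over 0.567 to 155 FPKM in Ern1-LKO livers and over 0.360 to 156 FPKM in WT livers, with ratios of 0.782 to 1.57. The median of the called collagens was 1.82 FPKM in Ern1-LKO livers and 0.806 FPKM in WT livers, while that of the collagens not called was 6.39 FPKM in Ern1-LKO livers and 5.16 FPKM in WT livers.

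Over the 20 tested collagens, 15 were above WT and 5 below, and the median log2 fold change was 0.61. Over all tested loci, 47.9% were above WT and the median log2 fold change was -0.01. A locus was tested only where it had enough fragments, and Col4a3 was the lowest tested collagen, at 0.350 FPKM in Ern1-LKO livers and 0.0763 FPKM in WT livers. Counts and medians over tested members therefore describe those members and not the whole family. Among the 24 collagens that were not tested, 14 were listed above WT, 7 below and 3 at 0 in both genotypes. Nearly all the tested collagens had a mean of both genotypes between 0.1 and 10 FPKM, 19 of 20, and in that window 1.70% of 8706 tested loci were called higher.

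**Figure D1:**
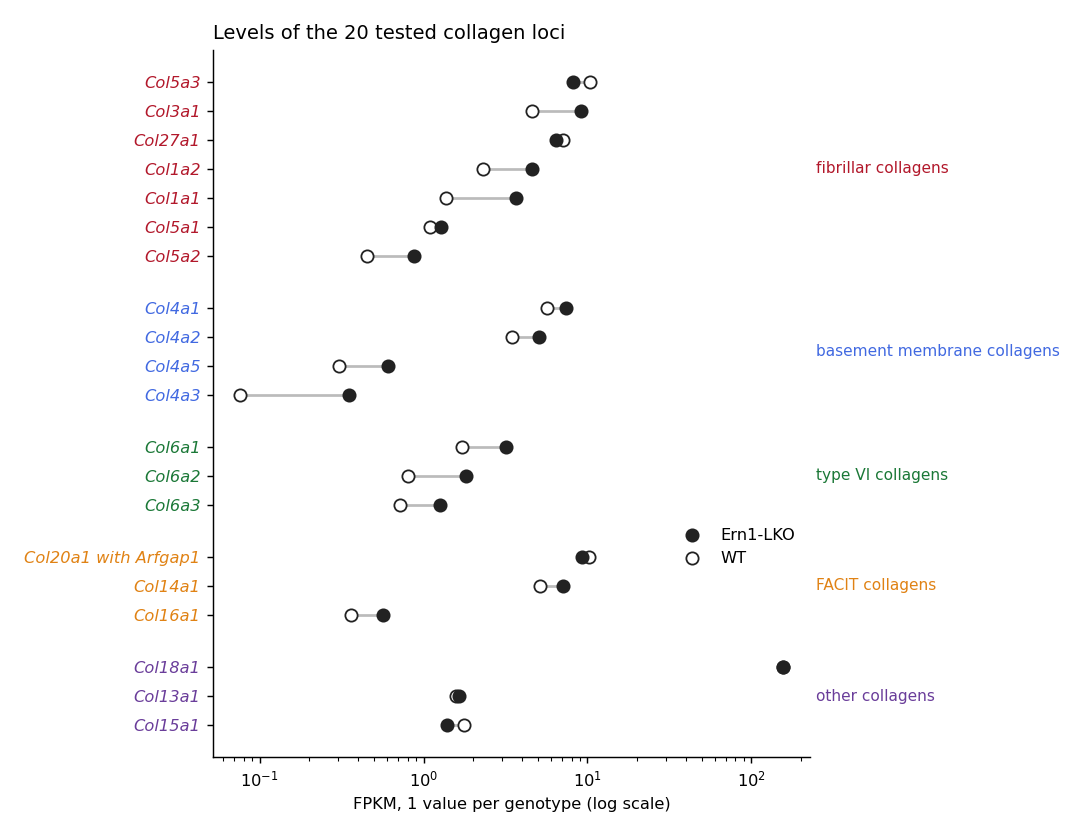
FPKM of the 20 tested collagen loci in Ern1-LKO livers (filled circles) and WT livers (open circles), 1 authors' value per genotype, on a log axis, grouped by class. Filled circles lie to the right of the open ones for 15 loci, and Col18a1, at 155 FPKM in Ern1-LKO livers and 156 FPKM in WT livers, lies far above the rest with its circles on top of each other.

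Start-site sequence was available in the RefSeq table (GRCm38.p6) for 6 of the 9 called collagens, and it is shown because these genes were all called higher. Each line gives the 120 bases before the annotated start, 5′ to 3′ on the gene's strand, with matches to 3 promoter motifs in capitals. The first motif has the letters CCAAT. The second, called the TATA box, was searched with the letters TATAAA. The third, the GC box, was searched with the letters GGGCGG. Both strands were searched, so the complement CCGCCC is capitalised as well.
Col1a2, chr6:4505498-4505617, plus strand: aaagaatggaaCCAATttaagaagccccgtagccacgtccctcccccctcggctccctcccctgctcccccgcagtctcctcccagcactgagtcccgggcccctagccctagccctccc
Col3a1, chr1:45311418-45311537, plus strand: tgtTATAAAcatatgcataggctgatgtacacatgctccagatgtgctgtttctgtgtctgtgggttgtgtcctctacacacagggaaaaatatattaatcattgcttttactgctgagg
Col4a5, chrX:141475299-141475418, plus strand: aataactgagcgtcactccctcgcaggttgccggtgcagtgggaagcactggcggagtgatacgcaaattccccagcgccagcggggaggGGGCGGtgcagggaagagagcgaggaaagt
Col6a1, chr10:76726045-76726164, minus strand: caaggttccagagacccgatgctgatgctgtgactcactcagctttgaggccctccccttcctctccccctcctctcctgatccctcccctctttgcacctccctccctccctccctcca
Col6a2, chr10:76623405-76623524, minus strand: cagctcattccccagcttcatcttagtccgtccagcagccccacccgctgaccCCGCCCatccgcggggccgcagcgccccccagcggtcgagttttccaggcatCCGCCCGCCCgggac
Col6a3, chr1:90843972-90844091, minus strand: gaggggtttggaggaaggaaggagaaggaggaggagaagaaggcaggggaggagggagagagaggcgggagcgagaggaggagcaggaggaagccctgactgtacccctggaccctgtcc
The start of Col1a2 in RefSeq lies 79 bases outside the deposited locus, while the other 5 starts coincide with the edge of their locus. Over the full 250 bases searched, the first motif stood in 2 of the 6 (Col1a2 and Col4a5), a TATA box in 1 (Col3a1) and a GC box in 3 (Col1a2, Col4a5 and Col6a2). Of 32851 promoter windows of that length in the table, 33.8% held the first motif, 12.4% a TATA box and 32.7% a GC box. The 3 motifs share no letters of these 6 windows, though 2 GC boxes of Col6a2 overlap each other. In the 10 tested but uncalled collagens with a promoter in the table, 5 held the first motif, 1 a TATA box and 6 a GC box. None of the 3 motifs was shared by all 6 called genes, and Col6a1 and Col6a3 held none of them in this window. A match of letters is a description and not a binding site.

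Among the fibrillar collagens, the chains of types I and III were higher in Ern1-LKO livers, while the most abundant type V chain and type XXVII were not called. Col1a1, the major chain of type I collagen (chr11:94936240-94953039, plus strand), was at 3.66 FPKM in Ern1-LKO livers and 1.38 FPKM in WT livers. For Col1a1 the authors' deposited table gave a log2 fold change of 1.41 (implied SE 0.21) with a Cuffdiff p of 5e-05 and q of 0.00343. Its partner in the type I trimer, Col1a2 (chr6:4505697-4541543, plus strand), was at 4.60 FPKM in Ern1-LKO livers and 2.30 FPKM in WT livers. For Col1a2 the authors' deposited table gave a log2 fold change of 1.0 (implied SE 0.19) and a Cuffdiff q of 0.00343. Col3a1, the chain of the homotrimeric type III collagen that makes up reticular fibres (chr1:45311538-45349706, plus strand), was at 9.18 FPKM in Ern1-LKO livers and 4.62 FPKM in WT livers. For Col3a1 the authors' deposited table gave a log2 fold change of 0.99 (implied SE 0.17) and a Cuffdiff q of 0.00343. The 3 chains summed to 17.4 FPKM in Ern1-LKO livers and 8.30 FPKM in WT livers, a ratio of 2.10. Each of these folds is several times its implied SE, and 5e-05 is the smallest p in the table, given to 194 loci.

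The 3 type V chains, which sit inside type I fibrils and set their diameter, did not go the same way. Col5a2 (chr1:45374331-45503282, minus strand), the chain that lies 24.6 kb from the 3′ end of Col3a1 on the other strand, was at 0.871 FPKM in Ern1-LKO livers and 0.449 FPKM in WT livers. For Col5a2 the authors' deposited table gave a log2 fold change of 0.96 (implied SE 0.24), a Cuffdiff p of 3.00e-04 and a q of 0.0163. Col5a1, which pairs with it in the usual type V trimer, was at 1.28 FPKM in Ern1-LKO livers and 1.09 FPKM in WT livers, and its Cuffdiff q in the authors' deposited table was 0.942. Col5a3 (chr9:20770050-20815034, minus strand) was the highest fibrillar chain of WT livers, with 8.16 FPKM in Ern1-LKO livers and 10.4 FPKM in WT livers. For Col5a3 the authors' deposited table gave a log2 fold change of -0.36 (implied SE 0.20) and a Cuffdiff q of 0.618. Col27a1, a shorter-helix fibrillar collagen best known from cartilage, was at 6.39 FPKM in Ern1-LKO livers and 7.14 FPKM in WT livers, with a Cuffdiff q of 0.996 in the authors' deposited table. Because the abundant Col5a3 and Col27a1 were not called and lay below WT, the summed fibrillar FPKM was 34.4 in Ern1-LKO livers and 27.7 in WT livers, a ratio of 1.24. Col11a2, at 0.158 FPKM in Ern1-LKO livers and 0.196 FPKM in WT livers, and Col24a1, at 0.0551 and 0.0345 FPKM in that order, were not tested. The cartilage chains Col2a1 and Col11a1 were listed at 0 in both genotypes.

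The type IV chains are encoded as head-to-head pairs, Col4a1 with Col4a2, Col4a3 with Col4a4 and Col4a5 with Col4a6, and the called ones were in the scarce pairs. Col4a3 (chr1:82586921-82722059, plus strand), a chain of the specialised network known from the kidney glomerulus and lung alveolus, was at 0.350 FPKM in Ern1-LKO livers and 0.0763 FPKM in WT livers. For Col4a3 the authors' deposited table gave a log2 fold change of 2.20 (implied SE 0.37) and a Cuffdiff q of 0.00343, the largest fold among the tested collagens at one of the lowest levels. Col4a4, which shares its start region, was at 0.0975 FPKM in Ern1-LKO livers and 0.0622 FPKM in WT livers and was not tested. Only 71 bases lie between the 2 genes, and the whole interval is printed from the RefSeq table (GRCm38.p6) on the plus strand, running from the start of Col4a4 to that of Col4a3.
Col4a4 to Col4a3, chr1:82586850-82586920, plus strand: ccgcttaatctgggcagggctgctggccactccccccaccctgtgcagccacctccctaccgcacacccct
None of the 3 motifs stood in it. Col4a5 (chrX:141475419-141689235, plus strand), which joins Col4a3 and Col4a4 in that network, was at 0.609 FPKM in Ern1-LKO livers and 0.307 FPKM in WT livers. For Col4a5 the authors' deposited table gave a log2 fold change of 0.99 (implied SE 0.26), a Cuffdiff p of 5.50e-04 and a q of 0.0258. Its neighbour Col4a6, 1308 bases away on the other strand, was at 0.0673 FPKM in Ern1-LKO livers and 0.0181 FPKM in WT livers, too low to be tested.

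The general type IV chains were the most abundant of the class and were not called. Col4a1, the chain that enters the common basement membrane trimer in duplicate, was at 7.40 FPKM in Ern1-LKO livers and 5.67 FPKM in WT livers. For Col4a1 the authors' deposited table gave a log2 fold change of 0.38 (implied SE 0.25) and a Cuffdiff q of 0.721. Col4a2, its partner, was at 5.07 FPKM in Ern1-LKO livers and 3.45 FPKM in WT livers. For Col4a2 the authors' deposited table gave a log2 fold change of 0.56 (implied SE 0.26), a Cuffdiff p of 0.0295 and a q of 0.362. The deposited table lists a single span for this pair (chr8:11198423-11449287), and their annotated 5′ ends overlap by 22 bases, so some fragments could belong to either gene. Summed over the 6 type IV chains, the level was 13.6 FPKM in Ern1-LKO livers and 9.58 FPKM in WT livers, a ratio of 1.42.

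**Figure D2:**
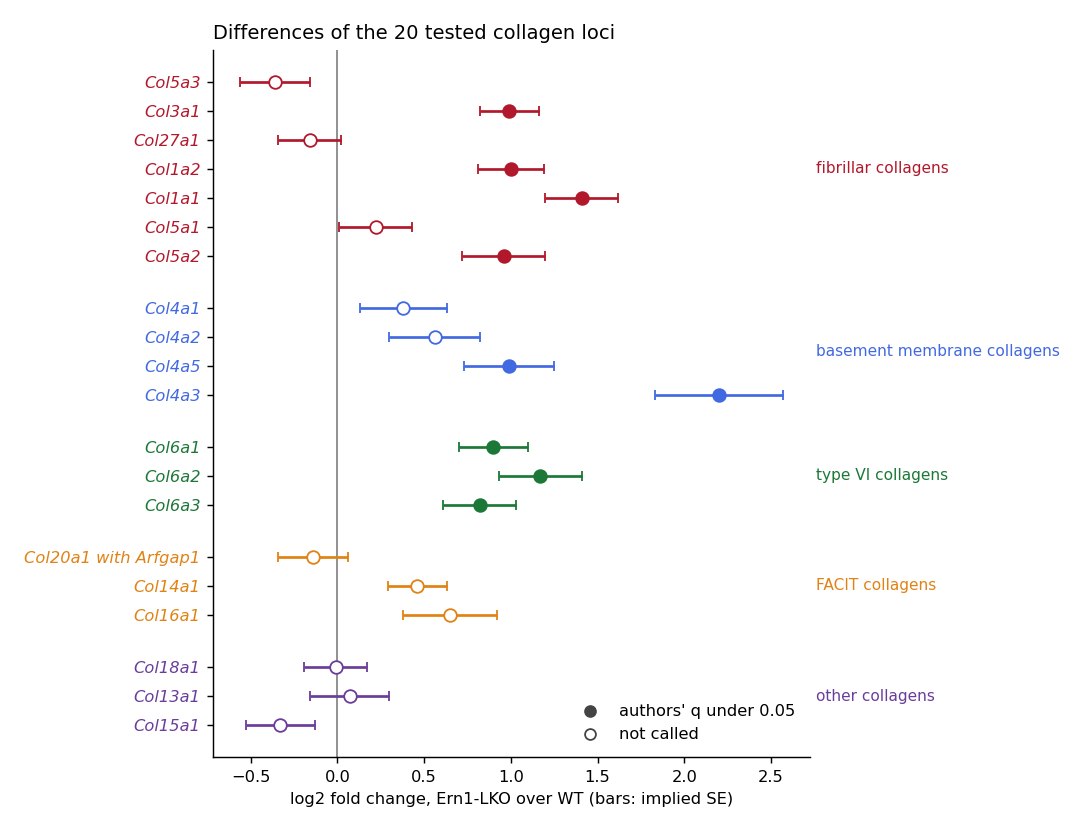
Log2 fold change of Ern1-LKO over WT for the 20 tested collagen loci, with bars of 1 SE implied by the authors' test statistic; filled points have an authors' q under 0.05. All 3 type VI chains, 4 fibrillar and 2 basement membrane chains are filled, between 0.82 and 2.20, and no FACIT or other collagen is.

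All 3 tested type VI chains were higher in Ern1-LKO livers. Type VI collagen is a heterotrimer of the Col6a1, Col6a2 and Col6a3 chains that links cells and basement membranes to the interstitial fibrils. Col6a1 (chr10:76708792-76726044, minus strand) was at 3.20 FPKM in Ern1-LKO livers and 1.72 FPKM in WT livers. For Col6a1 the authors' deposited table gave a log2 fold change of 0.90 (implied SE 0.20) and a Cuffdiff q of 0.00343. Its mRNA is among the reported substrates of IRE1-dependent RNA decay, the cleavage of ER-bound mRNAs by the RNase of IRE1α. Col6a2 (chr10:76595756-76623404, minus strand), which lies 85.2 kb from Col6a1 on the same strand, was at 1.82 FPKM in Ern1-LKO livers and 0.806 FPKM in WT livers. For Col6a2 the authors' deposited table gave a log2 fold change of 1.17 (implied SE 0.24) and a Cuffdiff q of 0.00343. Col6a3 (chr1:90766860-90843971, minus strand), the longest chain, was at 1.26 FPKM in Ern1-LKO livers and 0.714 FPKM in WT livers. For Col6a3 the authors' deposited table gave a log2 fold change of 0.82 (implied SE 0.21), a Cuffdiff p of 2.00e-04 and a q of 0.0117. The part of IRE1-dependent RNA decay in the difference of Col6a1 was not tested. The alternative chains were not tested, with Col6a5 at 0.113 FPKM in Ern1-LKO livers and 0.0268 FPKM in WT livers, Col6a6 at 0.102 and 0.119 FPKM and Col6a4 at 0.00424 and 0.00210 FPKM in the same order. The class summed to 6.50 FPKM in Ern1-LKO livers and 3.39 FPKM in WT livers, a ratio of 1.92.

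No FACIT collagen was called by Cuffdiff, though 2 of 3 tested lay at an unadjusted p under 0.05, both higher. FACIT collagens do not form fibrils themselves but coat those of other types. Col14a1 (chr15:55307750-55520803, plus strand), which binds type I fibrils and decorin, was at 7.10 FPKM in Ern1-LKO livers and 5.16 FPKM in WT livers. For Col14a1 the authors' deposited table gave a log2 fold change of 0.46 (implied SE 0.17), a Cuffdiff p of 0.00850 and a q of 0.174. Col16a1 was at 0.567 FPKM in Ern1-LKO livers and 0.360 FPKM in WT livers, with a Cuffdiff p of 0.0219 and a q of 0.310 in the authors' deposited table. Col20a1 shares 1 deposited locus with Arfgap1, a GTPase-activating protein of Golgi transport, and the 2 genes cannot be separated. That combined locus (chr2:180966901-181017724) was at 9.25 FPKM in Ern1-LKO livers and 10.2 FPKM in WT livers. For the locus of Arfgap1 and Col20a1 the authors' deposited table gave a log2 fold change of -0.14 (implied SE 0.20) and a Cuffdiff q of 0.999. The 6 untested FACIT chains were led by Col12a1, at 0.201 FPKM in Ern1-LKO livers and 0.241 FPKM in WT livers, the highest levels of any collagen that was not tested. Col9a3 was at 0.0695 FPKM in Ern1-LKO livers and 0.0510 FPKM in WT livers, and Col9a2 at 0.0443 FPKM in Ern1-LKO livers and listed at 0 in WT livers. Col22a1 and Col19a1 stayed under 0.01 FPKM in both genotypes, and Col9a1 was listed at 0 in both.

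The most abundant collagen of the liver did not differ between the genotypes beyond its error. Col18a1 (chr10:77052177-77166530, minus strand), whose carboxy-terminal fragment is endostatin, was at 155 FPKM in Ern1-LKO livers and 156 FPKM in WT livers. For Col18a1 the authors' deposited table gave a log2 fold change of -0.01 (implied SE 0.18) and a Cuffdiff q of 0.999. Its close relative Col15a1, a basement membrane zone collagen of vessels, was at 1.40 FPKM in Ern1-LKO livers and 1.76 FPKM in WT livers, with a Cuffdiff q of 0.671 in the authors' deposited table. Col13a1, a transmembrane collagen, was at 1.65 FPKM in Ern1-LKO livers and 1.57 FPKM in WT livers. For Col13a1 the authors' deposited table gave a log2 fold change of 0.07 (implied SE 0.23) and a Cuffdiff q of 0.999. No collagen of this mixed class lay at a p under 0.05. The other 9 were not tested. Of these the network collagens Col8a1 and Col8a2 were at 0.0976 and 0.0969 FPKM in Ern1-LKO livers, against 0.116 and 0.0673 FPKM in WT livers. Among the transmembrane collagens, Col25a1, Col23a1 and Col17a1 were at 0.0844, 0.0558 and 0.0161 FPKM in Ern1-LKO livers, against 0.0618, 0.0592 and 0.0169 FPKM in WT livers. The anchoring fibril collagen Col7a1 was at 0.0425 FPKM in Ern1-LKO livers and 0.0720 FPKM in WT livers, and Col28a1 at 0.0223 and 0.00362 FPKM in that order. Col10a1, of growth plate cartilage, was at 0.010 FPKM in Ern1-LKO livers and 0.00502 FPKM in WT livers, and Col26a1 was at 0.00618 FPKM in Ern1-LKO livers and listed at 0 in WT livers.

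The make-up of the family's RNA shifted with these differences. Sums were taken over the 43 collagens whose entries name no other gene, including Col4a1 and Col4a2, whose separate entries share a single span. Their summed level was 221 FPKM in Ern1-LKO livers and 206 FPKM in WT livers. Col18a1 alone held 70.2% of that sum in Ern1-LKO livers and 75.7% in WT livers. Without Col18a1, the other 42 collagens summed to 65.9 FPKM in Ern1-LKO livers and 50.2 FPKM in WT livers, a ratio of 1.31. The share of type VI was 2.94% in Ern1-LKO livers and 1.64% in WT livers, that of type IV 6.14% and 4.65%, and that of fibrillar collagens 15.5% and 13.4%, in the same order. Among the 43, Col3a1 ranked 2 in Ern1-LKO livers and 6 in WT livers, Col1a1 ranked 9 and 12 in that order, and Col27a1 ranked 6 and 3.

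Ratios between partner chains show how evenly the members of a trimer moved, and no test of a ratio was run. The level of Col1a1 relative to Col1a2 was 0.796 in Ern1-LKO livers and 0.598 in WT livers, although the finished type I trimer has more of the Col1a1 chain. Col6a1 relative to Col6a2 was 1.76 in Ern1-LKO livers and 2.13 in WT livers. Col6a3 relative to Col6a1 was 0.393 in Ern1-LKO livers and 0.415 in WT livers. Col4a1 relative to Col4a2 was likewise close in both, at 1.46 in Ern1-LKO livers and 1.65 in WT livers. The type V chains were less even, with Col5a3 relative to Col5a1 at 6.39 in Ern1-LKO livers and 9.54 in WT livers, and Col5a1 relative to Col5a2 at 1.47 in Ern1-LKO livers and 2.44 in WT livers. The ratio of Col4a3 to Col4a4 was 3.60 in Ern1-LKO livers and 1.23 in WT livers, at levels where Col4a4 was too low to be tested.

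**Figure D3:**
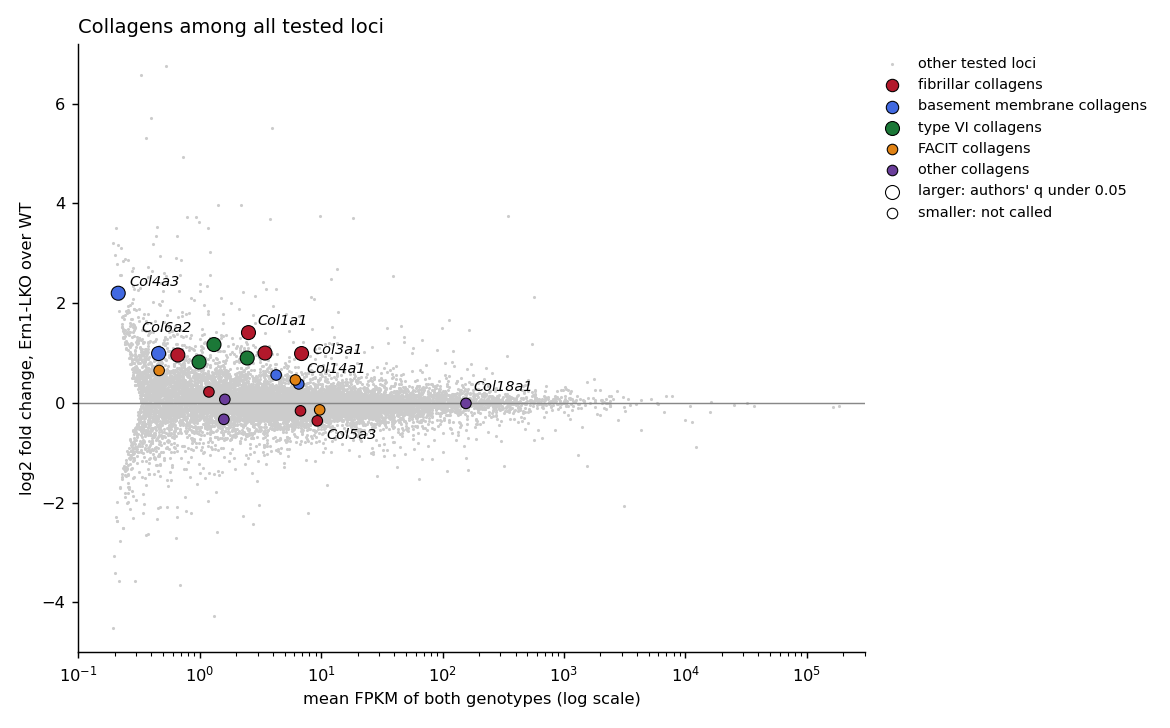
Log2 fold change of Ern1-LKO over WT against the mean FPKM of both genotypes (log axis) for all tested loci (grey; loci listed at 0 in a genotype are not drawn) and the 20 tested collagens, coloured by class, with the larger points for an authors' q under 0.05. The 9 larger points lie between 0.82 and 2.20 at means under 10 FPKM, while Col18a1 lies at -0.01.

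The genes that make, move and remodel collagen differed in direction from list to list. Each count of calls below stands beside the same shares over all tested loci, 1.58% called higher and 1.16% called lower. At an unadjusted Cuffdiff p under 0.05, 5.74% of all tested loci were higher. Among 16 tested hydroxylation and folding genes, none was called higher and 1 was called lower, P4hb, the protein disulfide isomerase that is also the beta subunit of prolyl 4-hydroxylase. P4hb was at 187 FPKM in Ern1-LKO livers and 453 FPKM in WT livers, with a log2 fold change of -1.28 (implied SE 0.17) and a Cuffdiff q of 0.00343 in the authors' deposited table. The catalytic prolyl hydroxylase subunit P4ha1 was at 4.92 FPKM in Ern1-LKO livers and 4.38 FPKM in WT livers. Serpinh1, the collagen chaperone HSP47, was at 8.30 FPKM in Ern1-LKO livers and 5.53 FPKM in WT livers, and its Cuffdiff q in the authors' deposited table was 0.0827. Ppib, a prolyl isomerase of procollagen folding, was at 136 FPKM in Ern1-LKO livers and 181 FPKM in WT livers, with a Cuffdiff q of 0.431 in the authors' deposited table. The list's median log2 fold change was 0.06, with 10 of the 16 tested above WT and 6 below. P4hb and Ppib stood far above every collagen but Col18a1, and whole-liver RNA does not show which cells their values come from.

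All 10 tested procollagen secretion genes lay below WT, 1 of them called lower, and their log2 fold changes had a median of -0.19. The called gene was Sec24d, a cargo-binding subunit of the COPII coat, at 12.6 FPKM in Ern1-LKO livers and 19.9 FPKM in WT livers. For Sec24d the authors' deposited table gave a log2 fold change of -0.66 (implied SE 0.17) and a Cuffdiff q of 0.00637. In whole-liver RNA, the cells in which Sec24d differed cannot be told. Mia3 (TANGO1), the receptor that loads procollagen into COPII carriers, was at 27.6 FPKM in Ern1-LKO livers and 32.9 FPKM in WT livers. The most abundant of the list were Sar1b, the GTPase that starts coat assembly, at 157 FPKM in Ern1-LKO livers and 170 FPKM in WT livers, and Ctage5, at 61.5 and 70.5 FPKM in that order, and neither was called.

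Outside the cell, 2 of 9 tested processing and crosslinking genes were called higher and none lower, and the list's median was 0.39 (log2 fold change). Of the 9, 8 lay above WT, and 3 had an unadjusted Cuffdiff p under 0.05, all of them higher. Adamts2, which removes the amino-terminal propeptide of types I to III, was at 1.24 FPKM in Ern1-LKO livers and 0.626 FPKM in WT livers, with a log2 fold change of 0.99 (implied SE 0.23) and a Cuffdiff q of 0.00637 in the authors' deposited table. Loxl1, a lysyl oxidase, was at 1.16 FPKM in Ern1-LKO livers and 0.541 FPKM in WT livers, with a log2 fold change of 1.10 (implied SE 0.29) and a Cuffdiff q of 0.0186 in the authors' deposited table. Bmp1, the carboxy-terminal propeptidase, was the most abundant at 31.4 FPKM in Ern1-LKO livers and 28.4 FPKM in WT livers, followed by the combined locus of Fbxo24 and Pcolce at 5.07 and 3.86 FPKM in that order, and neither was called. Tll1 was listed at 0 in Ern1-LKO livers, and Tll2 and Mep1a at 0 in both genotypes.

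All 14 tested fibril-associated protein genes lay above WT, 3 of them called higher, with a list median of 0.57 (log2 fold change). At an unadjusted p under 0.05 there were 11, against 5.74% of all tested loci that were higher at that p. Dpt (dermatopontin), which binds decorin and type I fibrils, was at 7.91 FPKM in Ern1-LKO livers and 2.93 FPKM in WT livers, with a log2 fold change of 1.43 (implied SE 0.22) and a Cuffdiff q of 0.00343 in the authors' deposited table. Lum (lumican), a small leucine-rich proteoglycan, was at 3.99 FPKM in Ern1-LKO livers and 2.26 FPKM in WT livers, with a Cuffdiff q of 0.0349 in the authors' deposited table. Thbs1 (thrombospondin 1) was at 1.19 FPKM in Ern1-LKO livers and 0.646 FPKM in WT livers, with a Cuffdiff q of 0.0186 in the authors' deposited table. Fn1 (fibronectin), which hepatocytes also make, was the most abundant of the list and was not called, at 238 FPKM in Ern1-LKO livers and 229 FPKM in WT livers. The combined locus of Ecm1 and Tars2, next in abundance and not called either, was at 70.3 FPKM in Ern1-LKO livers and 57.8 FPKM in WT livers.

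Of 9 tested degradation genes, 1 was called higher and none lower, and the list's median was 0.47 (log2 fold change). Above WT were 7 of the 9, and 3 lay at an unadjusted Cuffdiff p under 0.05, all higher. Mmp2 (gelatinase A) was at 1.65 FPKM in Ern1-LKO livers and 0.916 FPKM in WT livers, with a log2 fold change of 0.85 (implied SE 0.26) and a Cuffdiff q of 0.0470 in the authors' deposited table. The membrane-type proteases Mmp15, at 17.8 FPKM in Ern1-LKO livers and 15.2 FPKM in WT livers, and Mmp14, at 8.56 and 10.1 FPKM in that order, led the list and were not called. Mmp1a was listed at 0 in both genotypes and Mmp8 at 0 in WT livers.

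Neither the collagen receptors nor the other basement membrane proteins gave a call. At 1.58% of all tested loci called higher and 1.16% called lower, lists this short would often hold none. Of 8 tested receptors, Cuffdiff called 0, with 2 at an unadjusted p under 0.05, both higher, and the median log2 fold change was 0.19. The beta subunit of the collagen-binding integrins, Itgb1, was at 42.5 FPKM in Ern1-LKO livers and 45.4 FPKM in WT livers. Among 14 tested basement membrane partners of type IV collagen, Cuffdiff called 0, and the median log2 fold change was 0.11. At an unadjusted Cuffdiff p under 0.05 there were 4 partners, 3 of them higher, where 5.74% of all tested loci were higher. Agrn (agrin) was at 7.23 FPKM in Ern1-LKO livers and 7.56 FPKM in WT livers, and the laminin chain Lamc1 at 2.95 and 2.68 FPKM in that order.

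Of 19 tested genes of TGF-beta signalling and collagen transcription, 1 was called lower and none higher. Their median log2 fold change was 0.23, with 14 above WT and 5 below. At an unadjusted Cuffdiff p under 0.05 there were 5, 3 of them higher. The called gene was Creb3l2, an ER-resident transcription factor known in mouse cartilage to drive Sec23a and so procollagen export. Creb3l2 was at 2.66 FPKM in Ern1-LKO livers and 4.27 FPKM in WT livers, with a log2 fold change of -0.68 (implied SE 0.19) and a Cuffdiff q of 0.0209 in the authors' deposited table. The ligand Tgfb1 was at 4.71 FPKM in Ern1-LKO livers and 4.02 FPKM in WT livers, and was not called. Tgfbi, a TGF-beta-induced matrix protein that binds collagen, led the list at 13.7 FPKM in Ern1-LKO livers and 10.8 FPKM in WT livers, followed by the latent TGF-beta binding protein Ltbp4 at 13.0 and 10.6 FPKM in that order, neither of them called.

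**Figure D4:**
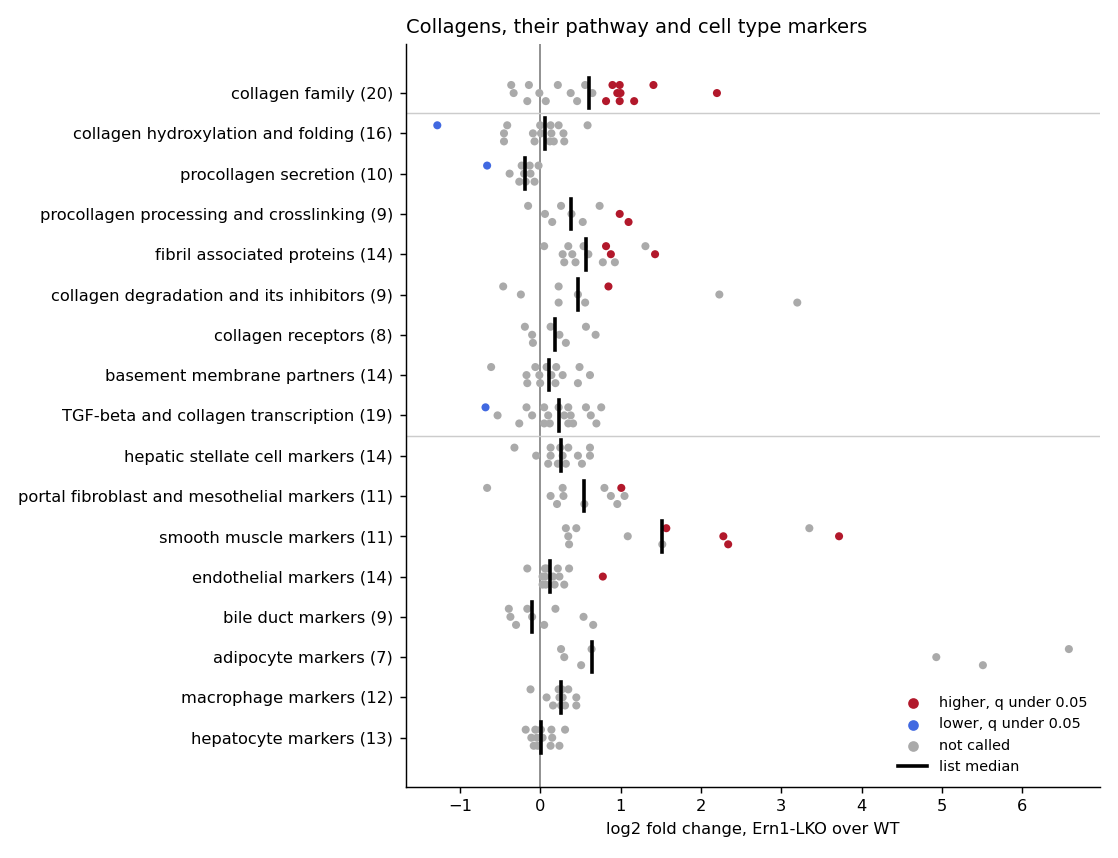
Log2 fold change of Ern1-LKO over WT for each tested member of the collagen family, of 8 lists of the collagen pathway and of 8 lists of cell type markers, with the number drawn in brackets and a black line at each list's median; Retn, listed at 0 in WT, is not drawn. Medians were 0.61 for the collagens and 1.52 for the smooth muscle markers, and lay between -0.19 and 0.64 for the other lists.

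Smooth muscle markers also lay above WT, all 11 tested, with 4 called higher. At an unadjusted Cuffdiff p under 0.05 there were 6 of the 11, all higher, where 5.74% of all tested loci were higher. The median log2 fold change of the smooth muscle list was 1.52, against 0.61 for the tested collagens. The list summed to 56.8 FPKM in Ern1-LKO livers and 30.1 FPKM in WT livers. Acta2, the actin of smooth muscle and of activated stellate cells, was at 5.86 FPKM in Ern1-LKO livers and 1.21 FPKM in WT livers, with a log2 fold change of 2.28 (implied SE 0.23) and a Cuffdiff q of 0.00343 in the authors' deposited table. The other called ones were the smooth muscle myosin Myh11, at 1.93 FPKM in Ern1-LKO livers and 0.382 FPKM in WT livers, the actin Actg2, at 1.74 and 0.132 FPKM, and the light chain Myl9, at 8.63 and 2.90 FPKM in the same order. Mylk and Tagln, the most abundant of that list, were not called, at 15.4 and 12.1 FPKM in Ern1-LKO livers, against 12.3 and 5.69 FPKM in WT livers. The part of smooth muscle RNA in the collagen differences was not tested.

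Stellate cell markers gave 0 calls by Cuffdiff among 14 tested, with 4 at an unadjusted p under 0.05, all higher, where 5.74% of all tested loci were higher at that p. Of the stellate list 12 were above WT, and the median log2 fold change was 0.27. Its members summed to 133 FPKM in Ern1-LKO livers and 110 FPKM in WT livers. The combined locus of Ecm1 and Tars2 made up 70.3 and 57.8 FPKM of that in the same order. Lrat, the retinol-esterifying enzyme of quiescent stellate cells, was at 2.47 FPKM in Ern1-LKO livers and 2.26 FPKM in WT livers. Colec11, next in abundance to the locus of Ecm1 and Tars2 in that list, was at 19.9 FPKM in Ern1-LKO livers and 18.2 FPKM in WT livers. Portal fibroblast and mesothelial markers had 1 of 11 tested called higher and 10 above WT. At an unadjusted Cuffdiff p under 0.05 there were 6 of the 11, all higher, where 5.74% of all tested loci were higher. This list's median log2 fold change was 0.55, and its members summed to 53.3 FPKM in Ern1-LKO livers and 42.2 FPKM in WT livers. The called marker was Fbln2 (fibulin 2), at 0.817 FPKM in Ern1-LKO livers and 0.405 FPKM in WT livers. Dpp4 alone made up 29.2 FPKM of the list's sum in Ern1-LKO livers and 24.1 FPKM in WT livers. Gas6, next in abundance, was at 12.2 and 10.6 FPKM in the same order. Neither was called, and their log2 fold changes of 0.28 for Dpp4 and 0.21 for Gas6 lay under the list's median. The part of these cells in the collagen differences was not tested.

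Among other cell types, endothelial markers had 1 of 14 tested called higher, Vwf, at 1.46 FPKM in Ern1-LKO livers and 0.850 FPKM in WT livers, with 13 of 14 above WT, a median log2 fold change of 0.12 and sums of 181 FPKM in Ern1-LKO livers and 170 FPKM in WT livers. The abundant sinusoidal marker Clec4g was at 54.8 FPKM in Ern1-LKO livers and 52.6 FPKM in WT livers, and Egfl7 at 23.6 and 23.2 FPKM in that order. Adipocyte markers had 1 of 8 tested called higher, Retn, at 2.06 FPKM in Ern1-LKO livers and listed at 0 in WT livers. All 8 were above WT, and Lep was also listed at 0 in WT livers. The list summed to 2229 FPKM in Ern1-LKO livers and 1846 FPKM in WT livers, but Car3, which hepatocytes also express, made up 2166 and 1807 FPKM of that in the same order, and Fabp4 24.9 and 17.5 FPKM. Adipoq was at 1.42 FPKM in Ern1-LKO livers and 0.0463 FPKM in WT livers, and Cfd at 7.66 and 0.168 FPKM in that order, both without a call. Their ratios were 30.6 and 45.5, so a missing call is not a small difference. Without Retn, the adipocyte median log2 fold change was 0.64. With Retn counted, 4 of the 8 tested lay at an unadjusted Cuffdiff p under 0.05, all higher. Macrophage markers had 0 calls by Cuffdiff among 12 tested, with 11 above WT. At an unadjusted p under 0.05 there were 2, both higher, where 5.74% of all tested loci were higher. The list summed to 451 FPKM in Ern1-LKO livers and 419 FPKM in WT livers. It was led by the combined locus of Cd68 and Eif4a1, at 150 and 163 FPKM, and Lyz2, at 49.6 and 41.4 FPKM, in the same order. Bile duct markers had 0 calls by Cuffdiff among 9 tested, with 4 above WT and 2 at an unadjusted p under 0.05, 1 of them higher. That list summed to 67.0 FPKM in Ern1-LKO livers and 77.5 FPKM in WT livers. It was led by Spp1, at 30.3 and 37.2 FPKM, and Cdh1, at 26.6 and 29.8 FPKM, in the same order. The part of each of these cell types in the collagen differences was not tested.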

How the data were processed

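Per the labels, liver total RNA (RNAiso) was made into NEBNext Ultra libraries for an Illumina HiSeq instrument. The submitters' processing notes name bcl2fastq, FastQC 0.11.3, TopHat2 2.0.14, Cufflinks 2.2.1 and the mm10 build. The authors' deposited values, per the file headers, are those of a Cuffdiff comparison, with 1 FPKM per genotype, a log2 fold change of the knockout over WT, a test statistic (a signed score), a p-value and a q-value per locus. No source used here states the annotation or how dispersion was estimated.

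A locus was called at the authors' q under 0.05, which rests on 13320 tested loci (of the rest, 12238 were too low, 13 had too many fragments and 1 failed; 1 line held no values). The design foresaw limma for values per library; with 1 value per genotype, no test across mice was run, and p-values measure only the spread between libraries that the authors' model assigns. The labels call the libraries biological replicates. Implied SEs were obtained by dividing the size of the log2 fold change, converted to natural log, by that of the test statistic. The z they give, over the z of the p-value, had a median ratio of 1.02 (5th to 95th percentile 0.997 to 1.09) over 6239 loci. They fail at a few low loci. The 194 loci at the smallest Cuffdiff p, 5e-05, were left out of this check. Among these are Col1a1, Col1a2, Col3a1, Col4a3, Col6a1 and Col6a2, so their implied SEs were not checked in this way. Starts were shifted to 1-based mm10 coordinates. Strandedness is not given, so overlapping and antisense genes cannot be told apart.

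The collagens and lists were chosen with earlier results of these data known. Every tested collagen is named; full statistics go to called members and the 2 of highest mean FPKM per class; of each list, the called members and the 2 of highest mean FPKM. Ern1 and Acta2 are named in any case. The receptor list's second locus by that rule is not reported here. Other genes (P4ha1, Serpinh1, Mia3, Tgfb1, Lrat, Adipoq, Cfd, Ttr) were named after their values were seen. Alternatives were q under 0.01, adjustment over expressed loci, a mean FPKM of at least 1, a 2-fold minimum, a shift of the median log2 fold change to 0 and pseudocounts of 1, 0.5 and 0.1. Scripts were tested on simulated data. Software was matplotlib 3.10.9, scipy 1.17.1, pandas 2.3.3 and numpy 2.4.6 under Python 3.11.15.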

Additional observations from a re-analysis of the deposited data

How the results depend on the processing

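The 9 collagens called higher became 6 at q under 0.01 and 6 when the deposited p-values were adjusted over expressed loci alone (at least 1 FPKM in the higher genotype, which leaves out Col4a3, Col4a5 and Col5a2), 5 among the 15 with a mean of at least 1 FPKM, and 3 (Col1a1, Col4a3 and Col6a2) with a 2-fold minimum. No setting gave a collagen called lower. With the 2-fold minimum, 1 fibrillar, 1 basement membrane and 1 type VI collagen remained. The 2 basement membrane calls rest on chains under 1 FPKM: they became 1 at q under 0.01, and 0 with adjustment over expressed loci or a mean of at least 1 FPKM, which leave both out by construction. Col4a5 (q 0.0258), Col5a2 (q 0.0163) and Col6a3 (q 0.0117) in the authors' deposited table lose their call at 0.01. For the 16 collagens given full statistics, 58 of 61 alternative calls at q under 0.01, over expressed loci or with a normal p stayed on the same side. That count does not measure robustness, because part of it was fixed in advance. A collagen not called at the authors' threshold cannot be called at q under 0.01. These settings keep the deposited log2 fold change or shift it by the median of -0.022, so no called collagen could change direction. Collagens outside the expressed set have no value in the setting over expressed loci. The 2-fold and 1 FPKM settings were counted by class and not by gene. Collagens above WT were 27 of 39 when all those above 0 in both genotypes were counted, against 15 of 20 tested. The median log2 fold change of the 20 tested collagens, 0.61, became 0.33 on the log2(FPKM + 1) scale, which understates low genes, and 0.38 at a mean of at least 1 FPKM. At q under 0.01, the calls became 1 for processing and crosslinking, 1 for fibril-associated proteins, 0 for degradation and 0 for TGF-beta and collagen transcription, and at a mean of at least 1 FPKM they became 0 for processing and crosslinking. Over all loci, 365 calls became 221 at q under 0.01, 474 after the shift of the median by -0.022 with a normal p, and 481 with a normal p and no shift, an alternative that was added once the data had been seen. No paired analysis was possible because each genotype has a single deposited column, and no library could be left out for the same reason, so how far a single liver carries these differences is not known. Depth is unknown, and 24 collagens were too low for the authors' test.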
